A study of Mus musculus with 6 samples.

Results

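The genes described here encode the sorbin-SH3 adaptors Sorbs2 and Sorbs3, the adaptors Crk and Crkl, the ubiquitin ligase and scaffold Cbl, and 4 proteins of integrin adhesions, Bcar1 (p130Cas), Ptk2 (focal adhesion kinase, FAK), Vcl (vinculin) and Itgb1 (the integrin β1 chain). They were chosen by symbol, and all 9 were found among the 54393 genes of the table, each on 1 row. RNA came from the tibialis anterior, the shin muscle that lifts the foot, in adult mice. The samples were 3 wild-type muscles (WT, titled C57 with the numbers 1, 3 and 4) and 3 muscles of Dock3 knockout mice (Dock3 KO, numbered 1, 2 and 3). The strain of the knockout, its allele and the cells in which Dock3 is deleted are not given in the labels used here, and neither is the sex of the animals. Nothing in the labels says which muscles came from separate animals, so p-values measure the spread between these samples only.

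Integrins hold a muscle fibre to the matrix around it, chiefly at costameres, the rib-like attachments that lie over the Z-discs, and at the tendon end. The cytoplasmic tail of the β1 chain gathers talin, kindlin and vinculin, which tie it to actin, and FAK, which with Src phosphorylates Bcar1. Crk and Crkl bind phosphorylated Bcar1 through their SH2 domains and pass the signal to exchange factors, among them DOCK proteins, which activate Rac. The sorbin-SH3 adaptors bind vinculin, Cbl and Abl-family kinases and sit at adhesions and Z-discs. Dock3 encodes a DOCK exchange factor, so Itgb1, Ptk2, Bcar1, Crk and Crkl stand upstream of the kind of protein that the knockout lacks.

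Dock3 was read first, since it checks the labels. Its normalized counts were 169, 161 and 118 in WT replicates 1, 3 and 4, against 22.4, 1.78 and 1.54 in Dock3 KO replicates 1, 2 and 3. All Dock3 KO samples lay far below WT, replicate 1 least so. The summed normalized counts ran from 23520223 to 33393950 per sample, which corresponds to approximately 21700000 to 32500000 reads by the worth of 1 read in the low values. By this estimate Dock3 KO replicates 1 and 2 had the fewest reads. In them 2 highly abundant transcripts, Gm42418 and Lars2, made up 17.9% and 20.3% of the sum, against 3.00% to 3.64% in the other 4 samples. Genes that define skeletal muscle fibres summed to between 1623570 and 1743140 in WT and between 1679210 and 1825140 in Dock3 KO. These sums mark every sample as skeletal muscle but cannot tell which muscle it was. Over 16031 genes tested, 165 had a Benjamini-Hochberg adjusted p under 0.05 between the genotypes in limma, the threshold used throughout, with 94 of them lower in Dock3 KO and 71 higher.

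None of the 9 genes was among those 165, a share to be read beside the 1.03% of all genes tested that were called, 0.586% lower and 0.443% higher in Dock3 KO. At an unadjusted p under 0.05 there were 4 of 9, Sorbs2, Itgb1, Bcar1 and Vcl, all with lower means in Dock3 KO, where 5.70% of all genes tested had such a p and a lower mean and 4.82% such a p and a higher mean (limma). In the same 4 genes each Dock3 KO sample lay below each WT sample, which held for 8.65% of all genes tested, and the opposite held for 7.60% of those and for none of the 9. The means of these 4 in Dock3 KO were 24.1% to 27.7% below those in WT. The other 5 genes, Sorbs3, Cbl, Crk, Crkl and Ptk2, had overlapping groups. The median log2 difference of the 9, Dock3 KO minus WT on the scale of log2(normalized count + 1), was -0.16, and that of all genes tested was -0.01. Since the genes were named with earlier results of these data known, these counts describe them and test nothing about them as a set.

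**Figure D1:**
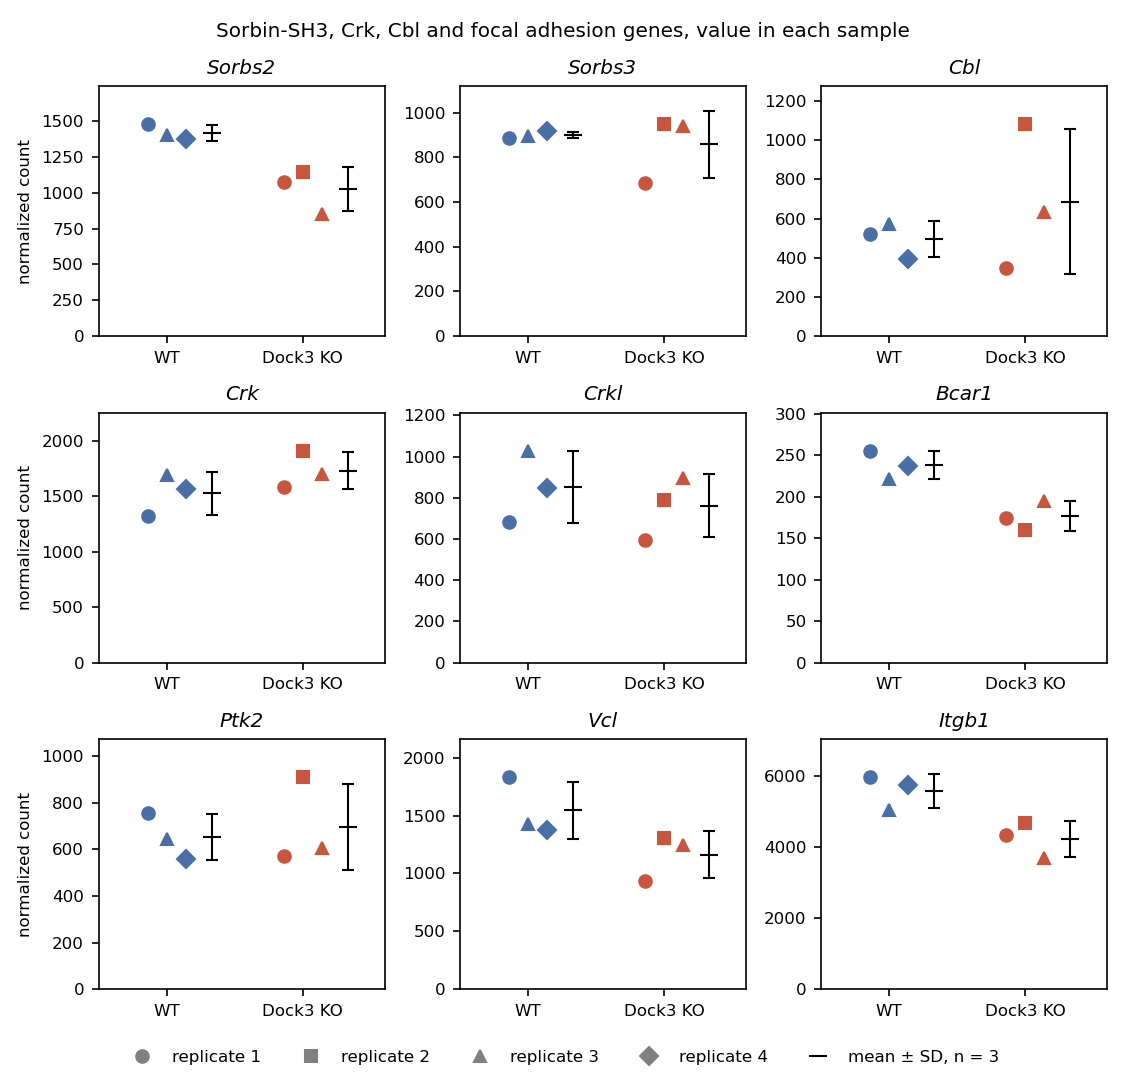
Normalized counts (vertical axes, each from 0) of the 9 genes in each WT and Dock3 KO sample, with the mean ± SD of 3 samples beside the points and the marker shape giving the replicate number. Sorbs2, Bcar1, Vcl and Itgb1 have all 3 Dock3 KO points below all 3 WT points, and Cbl has its widest spread in Dock3 KO, from 345 to 1082.

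Itgb1 (ENSMUSG00000025809; GRCm38 chromosome 8, 128685654 to 128733200, plus strand) encodes the β1 chain that pairs with most of the α chains found in muscle. Normalized counts of Itgb1 were 5958, 5026 and 5740 in WT replicates 1, 3 and 4, an order of replicates kept below, and 4326, 4682 and 3689 in Dock3 KO replicates 1, 2 and 3. The groups did not overlap, and the lowest WT sample was 343.9 normalized counts above the highest Dock3 KO sample. The WT mean was 5575 ± 487 and the Dock3 KO mean 4232 ± 503 (SD, n = 3 each). This is a log2 difference of -0.40 (standard error 0.14), whose 95% interval corresponds to a Dock3 KO level of 0.615 to 0.934 of WT. It did not pass the threshold (limma unadjusted p = 0.0144, adjusted p = 0.297). The exact permutation p, two-sided, was 0.1, which is the smallest that 3 against 3 samples allow. In a whole muscle, fewer cells of a type and less RNA per cell cannot be told apart, here and for the genes below.

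Vcl (ENSMUSG00000021823; chromosome 14, 20929398 to 21033676, plus strand) encodes vinculin, which links talin to actin and strengthens an adhesion under load. Its values were 1830, 1431 and 1372 in WT and 931 (replicate 1), 1309 (replicate 2) and 1243 (replicate 3) in Dock3 KO. The groups stood apart by 63.5 normalized counts, a small gap beside SDs of 249.1 in WT and 202 in Dock3 KO. The highest WT sample, replicate 1, and the lowest Dock3 KO sample, replicate 1, lay away from the others. The log2 difference was -0.41 (standard error 0.17, limma unadjusted p = 0.0354, adjusted p = 0.422). Without Dock3 KO replicate 1 it was -0.26, and without WT replicate 1 it was -0.29. The last part of Vcl overlaps Ap3m1 on the other strand, a gene at 542 to 836 normalized counts in the 6 samples, and whether strand was used in counting is not given in the sources used here.

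The bases before the annotated starts of Vcl and Itgb1 are shown because each has a single start in the RefSeq table used (GRCm38.p6) and both genes lay lower in every Dock3 KO sample. Each line gives the 250 bases before the start, 5′ to 3′ on the gene's strand, at chr14:20929148-20929397 and chr8:128685404-128685653. Capitals mark every match, on either strand, to any of 6 motifs. These were the GC box (GGGCGG), the motif that TEAD factors bind (GGAATG), the CCAAT box, the TATAAA box, the E-box (CANNTG) and, by name, the CArG box of serum response factor.
Vcl: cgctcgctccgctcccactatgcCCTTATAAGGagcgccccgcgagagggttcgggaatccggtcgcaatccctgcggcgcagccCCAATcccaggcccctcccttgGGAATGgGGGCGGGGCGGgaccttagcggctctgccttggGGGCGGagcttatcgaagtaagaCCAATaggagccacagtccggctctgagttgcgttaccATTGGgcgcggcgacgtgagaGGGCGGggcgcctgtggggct
Itgb1: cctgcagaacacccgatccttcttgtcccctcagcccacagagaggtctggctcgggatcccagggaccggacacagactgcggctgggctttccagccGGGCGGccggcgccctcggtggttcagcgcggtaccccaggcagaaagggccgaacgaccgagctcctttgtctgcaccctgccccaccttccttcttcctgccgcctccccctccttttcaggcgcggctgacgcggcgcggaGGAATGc

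The Vcl window held a CArG box, CCTTATAAGG, whose first base is 227 bases before the start, together with 3 CCAAT boxes, 4 GC boxes and 1 TEAD motif. Of the GC boxes, those beginning 136 and 131 bases before the start share a base. The Itgb1 window held 1 GC box and 1 TEAD motif. Of all 32851 windows of this length in the table, 1.47% held a CArG box, 12.6% the TEAD motif, 32.7% the GC box, 33.85% CCAAT, 66.2% an E-box and 12.4% TATAAA. Both windows lack an E-box and TATAAA. The table has 10 windows for 7 of the genes, and the CArG box was found in 1 of the 10. Sorbs3 and Ptk2 have no window in it. A match is a description of letters only, and RNA values per gene do not show which start was used.

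Sorbs2 (ENSMUSG00000031626; chromosome 8, 45507788 to 45827906, plus strand) encodes an adaptor also called ArgBP2, found at Z-discs and stress fibres. Its WT values were 1478, 1401 and 1372, and those of Dock3 KO 1076 (replicate 1), 1146 (replicate 2) and 852 (replicate 3). The WT samples lay close together, with an SD of 3.89% of the mean, and all 3 Dock3 KO samples lay at least 226.1 normalized counts below them. Means were 1417 ± 55.1 and 1025 ± 153 (SD, n = 3 each). With a log2 difference of -0.48 and a standard error of 0.14, Sorbs2 had the smallest p of the 9 genes (limma unadjusted p = 0.00737, adjusted p = 0.223). The 95% interval corresponds to a Dock3 KO level of 0.576 to 0.895 of WT, and the exact two-sided permutation p was 0.1. Gm45457, a short gene model on the same strand within Sorbs2, had a mean of 27.7 normalized counts.

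Sorbs3 (ENSMUSG00000022091; chromosome 14, 70180468 to 70211989, minus strand) encodes vinexin, an adaptor of the same family that binds vinculin. Its values were 887, 895 and 916 in WT and 686 (replicate 1), 949 (replicate 2) and 941 (replicate 3) in Dock3 KO. Replicates 2 and 3 of Dock3 KO were above all WT samples and replicate 1 below them, so the groups overlapped. The log2 difference was -0.08 with a 95% interval of -0.43 to 0.26 (limma adjusted p = 0.918), and without Dock3 KO replicate 1 it was 0.07. Gm49417, which overlaps Sorbs3 on the other strand, had a mean of 33.2 normalized counts.

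Bcar1 (ENSMUSG00000031955; chromosome 8, 111710474 to 111743809, minus strand) encodes the docking protein p130Cas, which carries many tyrosines that FAK and Src-family kinases phosphorylate. WT samples had 256, 222 and 237 normalized counts, and Dock3 KO samples 175 (replicate 1), 160 (replicate 2) and 195 (replicate 3). The groups did not overlap, with 26.7 normalized counts between the nearest samples. Means were 238 ± 16.8 and 177 ± 17.8 (SD, n = 3 each), with a log2 difference of -0.43 and a standard error of 0.17 (limma unadjusted p = 0.0314, adjusted p = 0.399). With log2 Gm42418 as a covariate the difference was -0.27.

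Ptk2 (ENSMUSG00000022607; chromosome 15, 73205102 to 73423280, minus strand) encodes FAK, the kinase that integrin engagement activates. Its values were 754, 646 and 559 in WT and 573, 908 and 605 in Dock3 KO replicates 1, 2 and 3. One sample, Dock3 KO replicate 2, lay above all WT samples, and the others lay within the WT range. The log2 difference was 0.07 with a 95% interval of -0.37 to 0.51 (limma adjusted p = 0.950), and without Dock3 KO replicate 2 it was -0.14, the opposite sign.

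Crk (ENSMUSG00000017776; chromosome 11, 75679259 to 75706908, plus strand) and Crkl (ENSMUSG00000006134; chromosome 16, 17451987 to 17487434, plus strand) encode related adaptors made of SH2 and SH3 domains. Crk had 1320, 1696 and 1565 normalized counts in the WT samples, against 1582, 1913 and 1703 in Dock3 KO. Crkl had 681, 1028 and 849, against 595, 790 and 897. Both genes had overlapping groups, Crk with the higher mean in Dock3 KO and Crkl with the higher mean in WT. The 95% intervals of the log2 differences ran from -0.13 to 0.50 for Crk and from -0.60 to 0.27 for Crkl (limma adjusted p = 0.725 and 0.855). Rescaling samples to the same total moved Crk to -0.09 with all genes. Relative to the median of all genes it was 0.19 in both scalings, by arithmetic, since rescaling shifts all genes alike. The sign for Crkl turned with log2 Gm42418 as a covariate, to 0.15.

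Cbl (ENSMUSG00000034342; chromosome 9, 44142976 to 44234049, minus strand) encodes a ubiquitin ligase that binds sorbin-SH3 adaptors and Crk. WT samples had 521, 573 and 394 normalized counts, while Dock3 KO replicates 1, 2 and 3 had 345, 1082 and 633. The lowest and the highest of all 6 samples were both Dock3 KO samples. The SD was 18.6% of the mean in WT and 54.1% in Dock3 KO, where the median over 9989 genes with a mean of at least 100 was 14.3%. The log2 difference was 0.34 with a 95% interval of -0.43 to 1.10 (limma adjusted p = 0.817), and without Dock3 KO replicate 2 it was -0.07. Dock3 KO replicate 2 held the highest value of 4 of the 9 genes (Sorbs3, Cbl, Crk and Ptk2), and Dock3 KO replicate 1 the lowest value of 4 (Sorbs3, Cbl, Crkl and Vcl). WT replicate 1 held the highest value of another 4, Sorbs2, Bcar1, Vcl and Itgb1.

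**Figure D2:**
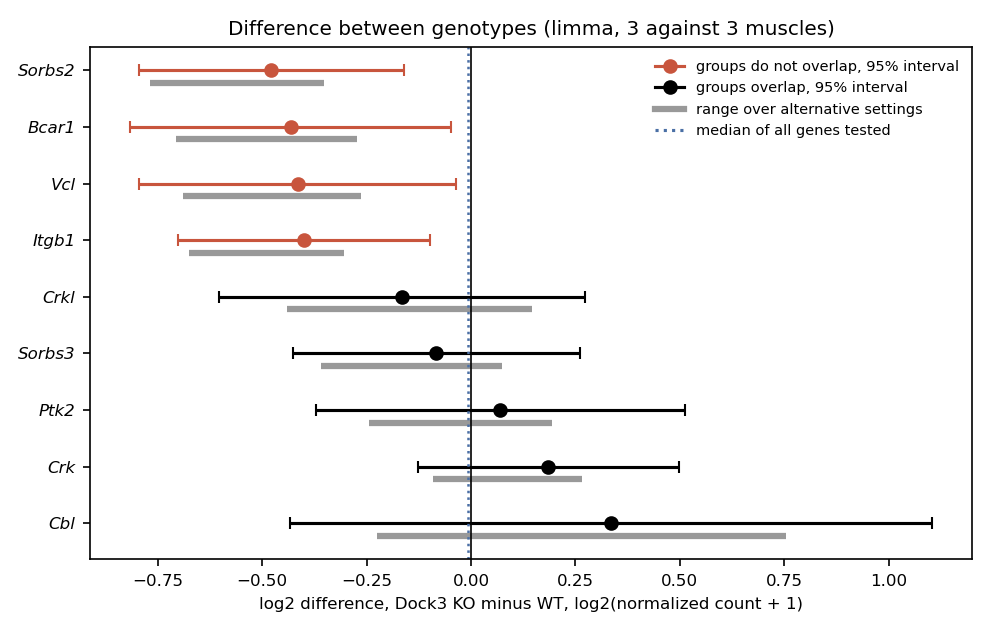
Log2 difference between genotypes (horizontal axis, Dock3 KO minus WT) with its 95% interval from limma for each of the 9 genes, and in grey the range over 19 alternative settings. The intervals of Sorbs2, Bcar1, Vcl and Itgb1 lie below 0 before adjustment over all genes, and those of the other 5 genes span 0.

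Rescaling all samples to the same total moved the median of all genes tested to -0.28, and the log2 differences of Sorbs2, Bcar1, Vcl and Itgb1 to -0.75, -0.71, -0.69 and -0.68. Relative to that median they were -0.47, -0.43, -0.41 and -0.40, and in the authors' scaling -0.47, -0.42, -0.41 and -0.39. This likeness follows by arithmetic, since rescaling a sample shifts all its genes alike, and it is no separate result. Without both Dock3 KO samples that held the large share of Gm42418 and Lars2, which leaves 1 Dock3 KO sample assumed to vary like the WT samples, the differences were -0.73, -0.28, -0.30 and -0.59 in the same order. With log2 Gm42418 as a covariate, the differences were -0.77, -0.27, -0.32 and -0.63. Bcar1 and Vcl then no longer had an unadjusted p under 0.05 (limma, 0.332 and 0.263). Gm42418 and Lars2 together had their large share only in Dock3 KO samples, so this covariate is partly tied to genotype. It is not a check separate from leaving out Dock3 KO replicates 1 and 2. No gene of the 9 had an adjusted p under 0.05 in any of the 19 alternatives (limma), and the smallest were 0.0575 for Sorbs2 and 0.0725 for Itgb1, both when rescaled to the same total.

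Ratios of 2 genes within a sample do not depend on the sample's scaling. Of 10 such ratios, 3 had groups that did not overlap, each with an exact two-sided permutation p of 0.1, the smallest possible, and a Benjamini-Hochberg adjusted p of 0.286 over the 10. Each of the 3 holds Itgb1, Bcar1 or Vcl, whose own groups did not overlap. Of all genes tested, 16.2% had groups that did not overlap in either direction, and no such share was taken over other pairs of genes. The log2 ratio of Itgb1 to Itga7, the α chain that pairs with β1 in mature fibres, was 2.67, 2.37 and 2.90 in WT and 1.94, 1.88 and 1.67 in Dock3 KO, a difference of -0.82. That of Bcar1 to Crk was -2.36, -2.93 and -2.72 in WT and -3.17, -3.57 and -3.12 in Dock3 KO, a difference of -0.62. The ratio of Ptk2 to Vcl was -1.28, -1.15 and -1.29 in WT and -0.70, -0.53 and -1.04 in Dock3 KO, a difference of 0.48. None of these ratios passed the adjusted threshold. The groups stand apart for Itgb1 to Itga7 by arithmetic, since Itgb1 was lower and Itga7 higher in every Dock3 KO sample.

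The other 7 ratios overlapped between the groups. Crk to Crkl was 0.95, 0.72 and 0.88 in WT, against 1.41, 1.27 and 0.92 in Dock3 KO replicates 1, 2 and 3. Sorbs2 to Sorbs3 was 0.74, 0.65 and 0.58 in WT and 0.65, 0.27 and -0.14 in Dock3 KO replicates 1, 2 and 3. Here Dock3 KO replicate 1 lay within the WT range and replicate 3 was farthest from it, and the difference of -0.40 was -0.19 without replicate 3. The differences of 4 more ratios were -0.03 for Cbl to Cblb, -0.38 for Bcar1 to Nedd9, 0.45 for Ptk2 to Ptk2b and -0.38 for Vcl to Tln1. Single samples moved these, with Ptk2 to Ptk2b at 0.14 without Dock3 KO replicate 2 and 0.86 without Dock3 KO replicate 1. Without WT replicate 1, Bcar1 to Nedd9 and Vcl to Tln1 were both at -0.21. The sign of Cbl to Cblb turned, to 0.18 when Dock3 KO replicate 1 was left out, 0.12 for WT replicate 3 and 0.09 for Dock3 KO replicate 3, and it was -0.37 without Dock3 KO replicate 2.

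**Figure D3:**
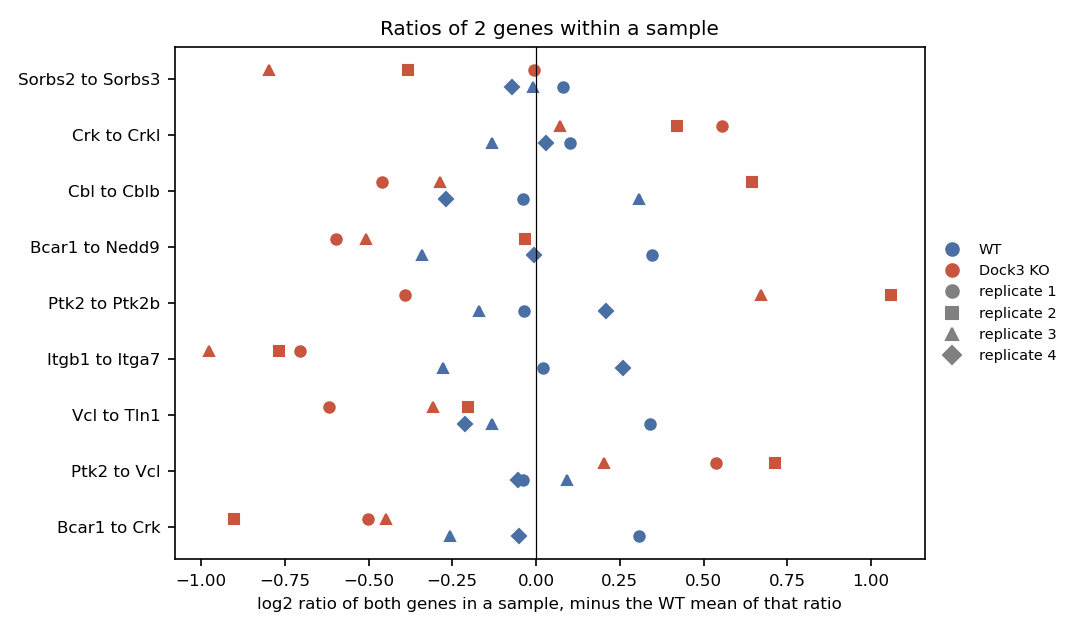
Log2 ratio of both genes in each sample minus the WT mean of that ratio (horizontal axis) for the 9 pairs reported, with WT in blue, Dock3 KO in red and the marker shape giving the replicate number. Groups stand apart for Itgb1 to Itga7, Ptk2 to Vcl and Bcar1 to Crk.

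Levels can be set beside each other per kilobase of the union of a gene's exons. In WT, Itgb1 was highest with 1366 ± 119 normalized counts per kilobase, followed by Crk with 323 ± 40.3, Sorbs3 with 248 ± 4.15, Vcl with 189 ± 30.4 and Crkl with 169 ± 34.4 (SD, n = 3 each). Ptk2, Bcar1, Sorbs2 and Cbl followed with 55.3, 52.4, 50.9 and 40.2 per kilobase. Sample ranges of neighbours overlapped for Vcl and Crkl and among Ptk2, Bcar1 and Sorbs2, so their order is not settled. Sorbs2 has 36 annotated transcripts whose exons cover 27851 bases, while its longest transcript has 6425. Per kilobase of the longest transcript Sorbs2 stood between Vcl and Crkl with 221 ± 8.58, and Vcl and Ptk2 stood at 293 and 140.

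The 5 genes whose values were most like those of Sorbs2 over the 6 samples were Vwa5a, Zfand1, Acsl4, Slc47a1 and Kcnc4, among 9988 compared. Their root mean square difference from Sorbs2, on centred log2 values, was 0.056 to 0.072. Vwa5a, the nearest, had WT values of 1146, 1022 and 1063 and Dock3 KO values of 804, 871 and 705, like Sorbs2 lowest in Dock3 KO replicate 3. None of these 5 genes passed the threshold, with limma adjusted p-values from 0.183 to 0.509. They were picked for values like those of Sorbs2, which did not pass either, so this is no separate result.

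Other genes of the pathway were read from 5 lists with 94 genes, of which 92 passed the filter on low values and 2, Cblc and Fermt1, did not. One of the 92 passed the threshold, Itgb6, which rose in Dock3 KO, a share near the 1.03% called among all genes tested. At an unadjusted p under 0.05 there were 10 (limma), 5 with a higher and 5 with a lower mean in Dock3 KO, a share near that of all genes tested, 10.5%. The median log2 differences of the lists lay between -0.04 and 0.16.

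Among 16 integrin subunits, 1 passed the threshold with a higher mean in Dock3 KO and none with a lower mean. Itgb6 (chromosome 2, 60598292 to 60722643, minus strand) encodes the β6 chain, which pairs with αv. WT samples had 604, 585 and 605 normalized counts, Dock3 KO samples 1043, 1037 and 1188, and all 3 Dock3 KO samples stood far above the WT samples. The log2 difference came to 0.86 (standard error 0.13, limma adjusted p = 0.00926). It passed the threshold in 13 of 19 alternatives (limma). Its adjusted p was 0.0597 without WT replicate 3, 0.0839 with a prior variance without trend, 0.102 with the replicate block, 0.109 with log2 Gm42418 as a covariate, 0.115 without Dock3 KO replicates 1 and 2, and 0.211 when rescaled to the same total (limma). Its log2 differences in these settings ran from 0.85 to 1.002, except 0.59 when rescaled to the same total, which was 0.87 relative to the median of all genes. Itga7 had values of 938, 974 and 766 in WT and 1125, 1273 and 1159 in Dock3 KO, which did not overlap, and a limma adjusted p of 0.292. The limma adjusted p was 0.392 for Itga3, with a log2 difference of -0.50, and 0.551 for Itga11, with 0.29. The groups did not overlap for either gene.

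Of 23 cytoplasmic linkers of integrins tested, none passed the threshold (limma), and 3 had an unadjusted p under 0.05. These were Itgb1bp2 (melusin, a muscle protein that binds the β1 tail), Vasp (an actin filament elongation factor) and Lpp (a LIM protein of adhesions), with log2 differences of -0.45, -0.42 and -0.32 and limma adjusted p-values of 0.331, 0.352 and 0.407. Itgb1bp2 had WT values of 1990, 1951 and 2353 and Dock3 KO values of 1801, 1616 and 1229, with groups apart as for Itgb1. Among 14 partners of Sorbs and Cbl tested, none passed, and 2 had an unadjusted p under 0.05. Pdlim5, a Z-disc PDZ-LIM protein, had WT values of 4689, 4261 and 4499 and Dock3 KO values of 6055, 7549 and 6058 (log2 difference 0.54, limma adjusted p = 0.121). Sh3kbp1, an endocytic adaptor of Cbl, had a log2 difference of -0.35, and the ligase Cblb one of 0.37 (limma adjusted p = 0.435 and 0.538).

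Of 23 genes of FAK, Src, Cas and Crk signalling none passed the threshold and none had an unadjusted p under 0.05 (limma), and the 3 smallest p-values were those of Asap2, Arhgef7 and Yes1, with log2 differences of 0.29, 0.19 and 0.26. Dock1, the DOCK relative best known for binding Crk, averaged 422 ± 47.0 in WT, against 439 ± 31.3 in Dock3 KO (SD, n = 3 each); it is named after its values were seen. Of 16 costamere and Z-disc anchors none passed, and 2 had an unadjusted p under 0.05 (limma). Xirp1, an actin-binding protein of strained adhesions, had WT values of 1318, 1345 and 870 and Dock3 KO values of 1269, 2795 and 7217, so that replicate 1 lay within the WT range. Its log2 difference was 1.35 (limma adjusted p = 0.343), and those of Nrap and Xirp2 were 0.38 and 0.42.

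**Figure D4:**
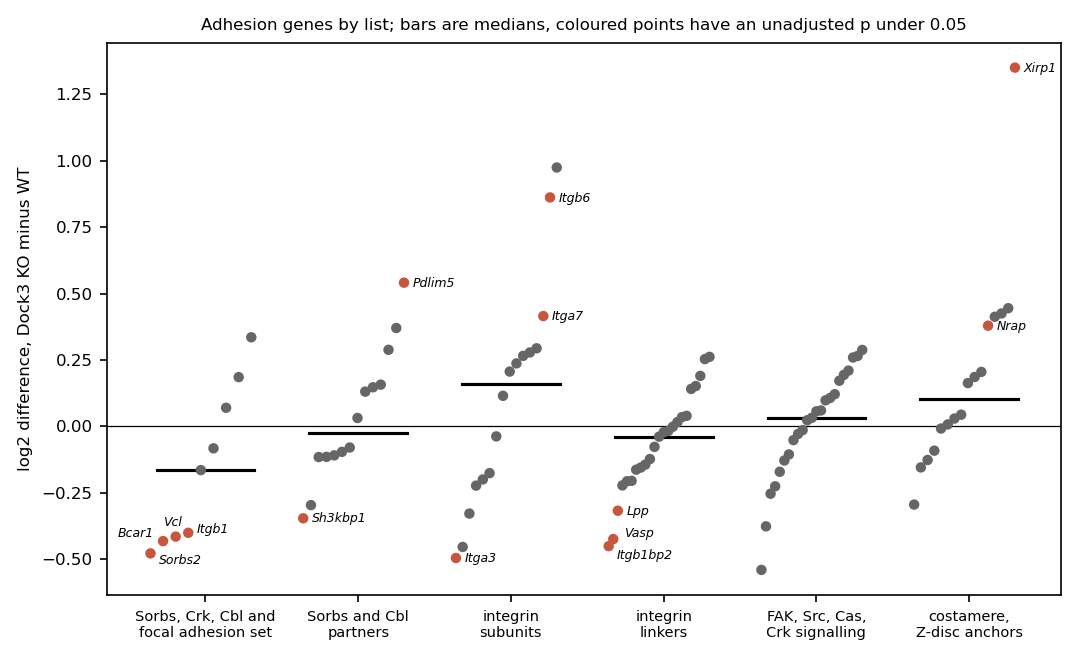
Log2 difference between genotypes (vertical axis, Dock3 KO minus WT) of each tested gene, ordered by size within its list, with bars at the list medians and coloured, named points where the unadjusted limma p was under 0.05. The coloured points of the set described here are Sorbs2, Bcar1, Vcl and Itgb1, all below 0. Itgb6 among the integrin subunits is the point past the adjusted threshold.

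The genes above are active in several cell types of muscle, so markers of other cells were summed in each sample. Macrophage markers (10 genes, led by Lyz2 and Csf1r) summed to 6507 to 7295 normalized counts in WT and 5527 to 6445 in Dock3 KO, without overlap (exact two-sided permutation p = 0.1). The log2 difference was below 0 for 9 of 10 macrophage markers, 9 of 10 endothelial markers and 8 of 10 smooth muscle and pericyte markers, with medians of -0.27, -0.10 and -0.35, against 8174 of all 16031 genes tested. Of the smooth muscle and pericyte markers, Myh11, Acta2, Tagln, Cnn1, Notch3 and Lmod1 were highest in WT replicate 3. Acta2 had 487, 2371 and 564 normalized counts in WT and 620, 586 and 686 in Dock3 KO. Rgs5, Pdgfrb, Kcnj8 and Abcc9 were highest in other samples. The part of macrophages, endothelial cells, smooth muscle and pericytes in the lower values of Itgb1, Vcl, Sorbs2 and Bcar1 was not tested. Fibroblast markers (10 genes, led by Gsn and Dcn) summed to 67229 to 73890 and 71228 to 80472, and 3 of them, Col1a1, Col3a1 and Fbn1, rose in Dock3 KO. The fibroblast markers went both ways, with 5 above and 5 below 0 and a median of 0.05. Pi16, named after its values were seen, was lower in every Dock3 KO sample than in every WT sample (log2 difference -0.47, limma adjusted p = 0.296). Endothelial markers (led by Flt1 and Pecam1) summed to 6770 to 9669 and 6846 to 7908, and smooth muscle and pericyte markers (led by Rgs5 and Abcc9) to 17142 to 20524 and 18860 to 21403. Tendon markers (led by Fmod and Thbs4) summed to 6059 to 12316 and 9765 to 17385, and Schwann cell markers (led by Pmp22 and Mbp) to 1632 to 2186 and 1724 to 2070. These last 4 lists and the fibroblast list overlapped between the groups, and no marker was at 0 in every sample.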

How the data were processed

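Per the labels' protocols, RNA of 6 muscles was depleted of ribosomal RNA and sequenced in stranded, paired-end libraries (Illumina). The values deposited by the authors are normalized counts, a scaled signal for each gene. The submitters' processing notes name FastQC, Trim Galore 0.4.5, Salmon 0.12.0, DESeq2 1.22.1, R 3.5.3 and the build GRCm38 (mm10) without saying what each did. The scaling method is not given in the sources used here. Only 16.4% to 24.4% of low values were whole multiples (within 0.01) of the most frequent one, so whole reads were not recovered and depths are estimates.

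All 54393 identifiers matched GENCODE M21 (GRCm38), which gave symbols, positions and lengths. Values were taken as log2(value + 1), which understates changes of low genes. Genes with a mean of at least 10 were fitted in limma 3.58.1 (R 4.3.3; lmFit, eBayes with trend) without covariates, with Benjamini-Hochberg adjustment across the 16031 genes that remained. Single values had exact permutation tests. The steps were tested on simulated data, with planted changes much larger than the differences of the genes described here. That run does not show whether differences of this size are found. Copies of a member were sought with blastn 2.17.0 (at least 95% identity over 50% of the shorter transcript and 100 bases): Cbl matched 16 pseudogenes at or near 0 and Ptk2 matched Gm37750, at a mean of 15.5. Plots used matplotlib 3.10.9.

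The genes, lists and tests were chosen with earlier results of these data known. Genes named are the 9, Dock3, called genes of each pathway list with the 3 smallest p-values otherwise, the 2 highest genes of each marker list, and the 5 most like the gene with the smallest p, with overlapping genes and copies at a mean of at least 10. Alternatives were pseudocounts, filters, prior variances, scalings, a covariate, a replicate block, summed copies and samples left out, the last also as a pair chosen after seeing the data. The replicate numbers shared by both groups are not said to mark a pair. With the replicate block, only samples with a shared number enter the difference. One item, and the ratio that uses it, is not reported here, while the counts of its list and the adjustment over 10 ratios include it.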

Additional observations from a re-analysis of the deposited data

How the results depend on the processing

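The 9 genes had none past the threshold in 18 other settings and 1 added after seeing the data (leaving out Dock3 KO replicates 1 and 2; limma), and 1 to 4 of them had an unadjusted p under 0.05. Sorbs2, Bcar1, Vcl and Itgb1 had differences below 0 in all 19, from -0.77 to -0.35, -0.71 to -0.27, -0.69 to -0.26 and -0.68 to -0.30. Since their groups did not overlap, only the 3 scalings and the Gm42418 covariate could turn the sign. In these the differences stayed below 0, and in the other settings they did so by arithmetic. Only the 3 scalings could make the groups overlap, and in these they did not. The count of 165 genes was 104 with a prior variance without trend, 57 with log2 Gm42418 as a covariate and 56 without Dock3 KO replicates 1 and 2. With 1 sample left out it ranged from 100 (without WT replicate 4; 102 without Dock3 KO replicate 2) to 159. The share of called genes that were higher was 43.0%, and 23.2% when rescaled to the same total, 32.1% when Gm42418 and Lars2 were left out of that total, 32.7% without trend, 29.8% with the covariate and 16.1% without Dock3 KO replicates 1 and 2.

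Of the pathway lists, 1 gene was called, and 0 were with a prior variance without trend, when rescaled to the same total, with log2 Gm42418 as a covariate and with the replicate block (limma, with 5, 11, 10 and 5 genes at an unadjusted p under 0.05, in this order). Leaving out 1 sample gave 0 (without WT replicate 3, 6 at an unadjusted p under 0.05) to 2 genes (Itgb6 and Xirp1, without Dock3 KO replicate 1). A replicate block gave 127 genes, of which 100 were shared with the 165. The log2 differences of Cbl and Ptk2 were -0.23 and -0.25 with it. In this setting the difference comes only from replicates 1 and 3, the numbers that both groups have. WT replicate 4 and Dock3 KO replicate 2 do not enter it, and the latter held the highest values of Cbl and Ptk2. Same-numbered samples correlated at 0.0649 and 0.00663 in their deviations from the group means. These values gave no sign of a pairing by number, but 2 such correlations cannot exclude one.

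Small differences turned sign. Rescaled to the same total, Crk was at -0.090 and Ptk2 at -0.21, and Ptk2 at -0.033 with Gm42418 and Lars2 left out of the total. These scalings shift all genes alike, so values relative to the median of all genes hardly change by arithmetic. Crk stayed at 0.19 and Ptk2 was 0.077 as deposited, 0.074 and 0.076. With the covariate, Sorbs3 was at 0.074, Crkl at 0.15 and Ptk2 at -0.15. Without Dock3 KO replicates 1 and 2, Sorbs3 was at 0.065, Crkl at 0.093 and Ptk2 at -0.098. With 1 sample left out, Sorbs3 ranged from -0.16 to 0.071 (without Dock3 KO replicate 1), Crkl from -0.32 to 0.0018 (without Dock3 KO replicate 1), Cbl from -0.068 (without Dock3 KO replicate 2) to 0.76, Ptk2 from -0.14 to 0.19 and the log2 ratio of Cbl to Cblb from -0.37 to 0.18. The cause was not tested. By the estimated reads, depth was lowest in Dock3 KO replicates 1 and 2, and 3 samples a group limit every interval.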
